A study of Homo sapiens with 6 samples.

Results

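The genes described here encode the SR proteins, whose symbols begin with SRSF, and the heterogeneous nuclear ribonucleoproteins (hnRNPs), whose symbols begin with HNRNP. They were chosen by name alone, as the protein-coding genes of GENCODE release 29 with these symbols, readthrough symbols with a hyphen left out. The rule gave 38 genes, 12 SRSF and 26 HNRNP, beside 19746 genes listed in the series. Of these 38, 32 (11 SRSF and 21 HNRNP) had a mean of at least 0.5 FPKM over the libraries and were tested together with all 12756 genes that passed this limit. HNRNPCL1, HNRNPCL2, HNRNPCL3, HNRNPCL4 and HNRNPA1P48 were listed in no library. SRSF12 was listed in 1 library only, shPcyt2-1 replicate 2, at 0.010 FPKM.

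SR proteins carry RNA recognition motifs and a tail rich in arginine and serine, bind exonic enhancers and recruit the spliceosome to weak splice sites. hnRNPs coat nascent pre-mRNA, and many of them bind silencers and oppose the SR proteins at the same exons, so that the balance of both families sets which exons are kept. Genes of both families also control their own mRNA through alternatively spliced exons that bring in a premature stop codon and send the transcript to nonsense-mediated decay. In carcinoma cells, both families are known for splice choices that accompany the epithelial-mesenchymal transition.

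RNA-Seq was performed in SW480 cells, an established human epithelial line from a colorectal carcinoma, with 2 libraries in each of 3 groups. The control group carried a nontargeting hairpin (shNT), and the other groups carried 1 of the hairpins shPcyt2-1 and shPcyt2-2 against PCYT2, which encodes a key enzyme of phosphatidylethanolamine synthesis. All cells, the controls included, were infected with a lentiviral hairpin vector and selected, so that no library represents uninfected cells. The question was how silencing of PCYT2 changes gene expression. The deposited values were taken as FPKM, in which fragment numbers are scaled to gene length and library size, and their sum ran from 396467 to 402612 per library over 18806 to 19209 listed genes. The depth in reads is unknown from these values. Nothing states that the 2 libraries of a group came from separate cultures, so the P values measure only the spread between these libraries. In bulk RNA, fewer cells with a transcript and less transcript per cell cannot be told apart.

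The hairpin target was examined first. PCYT2 (chromosome 17, 81900965 to 81911464 in GRCh38) was at 11.6 and 13.8 FPKM with shNT, 7.11 and 7.36 FPKM with shPcyt2-1, and 6.71 and 6.18 FPKM with shPcyt2-2. Both hairpin groups lay below both controls. On the log2 scale PCYT2 fell by 0.73 with shPcyt2-1 (adjusted P = 0.00204) and by 0.88 with shPcyt2-2 (adjusted P = 0.00261), by limma over all tested genes. Among the markers of an epithelial line, EPCAM was between 258 and 312 FPKM and KRT8 between 2734 and 3861 FPKM in all 6 libraries. PTPRC, which marks leukocytes, and COL3A1, which marks fibroblasts, were listed in none. The 7 epithelial markers summed to 8210 and 8769 FPKM with shNT, 8432 and 8525 FPKM with shPcyt2-1, and 6257 and 6554 FPKM with shPcyt2-2, with KRT8 as the most abundant. The 6 leukocyte markers summed to between 19.1 and 25.5 FPKM, most of it CD68, and the 9 fibroblast and endothelial markers to between 2.83 and 4.87 FPKM, with LUM or COL1A1 as the most abundant. Of the epithelial markers, the keratins KRT8, KRT18 and KRT19 carried the lower sum with shPcyt2-2. They fell by 0.41, 0.45 and 0.44 against shNT (adjusted P = 0.00483, 0.00319 and 0.00546, limma) and were also called lower than with shPcyt2-1, whereas CDX2, an intestinal transcription factor, was called higher (log2 difference 0.60, adjusted P = 0.00113, limma). CDH1, VIL1 and EPCAM went the other way with shPcyt2-2 against shNT, by 0.19, 0.14 and 0.11, and were not called (adjusted P = 0.120, 0.193 and 0.310, limma). Both shPcyt2-2 libraries lay above both controls in CDH1 and VIL1. CDX2 was at 15.5 and 16.9 FPKM with shNT, 10.01 and 9.88 FPKM with shPcyt2-1, and 16.03 and 15.1 FPKM with shPcyt2-2, and so the low group was shPcyt2-1, where it fell by 0.65 against shNT (adjusted P = 0.00138, limma). LUM, a matrix proteoglycan of fibroblasts, was at 0.789 and 0.863 FPKM with shNT, 2.17 and 2.24 FPKM with shPcyt2-1, and 1.37 and 1.09 FPKM with shPcyt2-2. It rose by 0.81 with shPcyt2-1 against shNT and differed by -0.53 between the hairpins (adjusted P = 0.00193 and 0.00838, limma). The part of these markers in the results that follow was not tested.

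The SR and hnRNP genes were expressed at high levels. The median of the mean FPKM was 36.3 over the 11 SRSF genes and 64.8 over the 21 HNRNP genes, compared with 7.17 over all tested genes. FPKM is a level per length of gene, so these levels can be set beside each other. Of the 32 genes, 30 had a mean of at least 10 FPKM and 8 of at least 100 FPKM. HNRNPA1, a shuttling repressor of exons and the most abundant of all, was at 178 and 195 FPKM with shNT, 244 and 213 FPKM with shPcyt2-1, and 200.6 and 192 FPKM with shPcyt2-2. HNRNPAB, a related RNA-binding protein, was at 193 and 208 FPKM with shNT, 214 and 209.6 FPKM with shPcyt2-1, and 188 and 187 FPKM with shPcyt2-2. HNRNPK, a poly(C)-binding protein, followed with 155 and 147 FPKM in the shNT libraries, 173 and 163 FPKM with shPcyt2-1, and 189 and 179.96 FPKM with shPcyt2-2. The order of these neighbours is not firm, since the 6 libraries of HNRNPA1 and HNRNPAB spanned overlapping ranges.

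Among the SR genes, SRSF5 and SRSF9 stood highest, at a mean of 102 and 95.3 FPKM. SRSF2, which binds exonic enhancers and acts also in transcription elongation, followed at 56.9 and 67.9 FPKM with shNT, 63.5 and 65.8 FPKM with shPcyt2-1, and 70.5 and 66.3 FPKM with shPcyt2-2. Both shPcyt2-2 libraries lay above both shPcyt2-1 libraries, while each hairpin group overlapped the controls, and the adjusted P of SRSF2 was 0.657 and 0.312 against shNT (limma). SRSF8 was the lowest SR gene, at a mean of 13.4 FPKM, close to SRSF10 at 14.1 FPKM. HNRNPA1L2 was the lowest hnRNP gene at 6.04 FPKM. Its longest open reading frame has 98.4% identity with that of HNRNPA1, and so its level, 2.42 to 3.47% of the HNRNPA1 level, is uncertain wherever reads were shared between the copies.

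The transcript annotation was compared with that of other genes. A transcript marked for nonsense-mediated decay was annotated for 11 of the 11 tested SRSF genes (100%) and 13 of the 21 tested HNRNP genes (61.9%), compared with 42.8% of 11945 tested protein-coding genes. A retained-intron transcript was annotated for 8 SRSF and 14 HNRNP genes (72.7% and 66.7%), compared with 57.9%. The deposited values are per gene and do not separate these transcripts. The GC content of the longest transcript had a median of 41.3% over the 32 genes and 49.4% over the protein-coding genes tested.

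Summed over the tested genes, SRSF transcripts reached 444 and 478 FPKM with shNT, 467 and 456 FPKM with shPcyt2-1, and 518 and 487 FPKM with shPcyt2-2. Summed HNRNP transcripts reached 1607 and 1617 FPKM with shNT, 1800.4 and 1754 FPKM with shPcyt2-1, and 1739 and 1654 FPKM with shPcyt2-2. The HNRNP sum was above both control libraries in each of the 4 knockdown libraries, and the SRSF sum was above them with shPcyt2-2 only. These sums hold for the deposited scaling. With the trend on GC content and transcript length removed from each library, 17 of 21 HNRNP and 7 of 11 SRSF genes had a negative log2 fold change with shPcyt2-2, compared with 9 and 1 in the deposited scaling.

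The first comparison asked which of these genes differed between shPcyt2-1 and shNT. Of the 32 genes, 9 were higher and 1 was lower at an adjusted P under 0.05 (limma), which is 31.25% compared with a background of 26.7% of all 12756 genes (16.5% higher and 10.1% lower), a share close to that background. Both shPcyt2-1 libraries lay above both shNT libraries in 17 of the 32 genes and below them in 6, compared with 43.3% and 25.6% of all tested genes. The higher genes were 3 SRSF genes, SRSF6, SRSF1 and SRSF3, and 6 HNRNP genes, HNRNPL, HNRNPH3, HNRNPR, HNRNPDL, HNRNPA1 and HNRNPUL1. The lower gene was SRSF9. The median log2 fold change was 0.11 over the 32 genes and 0.067 over all tested genes, and it turned to -0.012 over the 32 genes after correction of each library for a trend on GC content and transcript length.

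SRSF6, an SR protein that controls exons in epithelial differentiation, was at 24.4 and 25.03 FPKM with shNT and 33.0 and 31.1 FPKM with shPcyt2-1. Both knockdown libraries lay above both control libraries, with a log2 fold change of 0.36 (SE 0.070, adjusted P = 0.00768, limma). SRSF3, the smallest of the SR proteins, which also acts in mRNA export, rose from 38.1 and 38.5 FPKM to 48.2 and 46.1 FPKM. Its groups did not overlap, and the log2 fold change was 0.29 (SE 0.065, adjusted P = 0.0133, limma). SRSF1, the founding SR protein and a known oncoprotein, was at 17.9 and 18.2 FPKM with shNT and 24.0 and 21.1 FPKM with shPcyt2-1. Its log2 fold change was 0.30 (SE 0.094, adjusted P = 0.0418, limma), again without overlap of the groups. SRSF9 went the other way, from 96.8 and 114 FPKM to 87.8 and 86.7 FPKM, and its shPcyt2-2 libraries, at 95.01 and 90.9 FPKM, also lay below both controls. The spread of the control libraries was wide for SRSF9, whose log2 fold change was -0.27 (SE 0.080, adjusted P = 0.0371, limma). Without shNT replicate 2 it was -0.15 (adjusted P = 0.142, limma).

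HNRNPL, which binds CA repeats, showed the largest log2 fold change of the 32 genes with shPcyt2-1. It was at 70.9 and 63.4 FPKM with shNT and at 77.9 and 105 FPKM with shPcyt2-1. The replicates of shPcyt2-1 stood far apart, and the log2 fold change of 0.43 (SE 0.14, adjusted P = 0.0474, limma) passed the threshold in only 3 of 15 alternative settings. Without shPcyt2-1 replicate 2 it was 0.21. HNRNPH3, a small member of the G-tract binding H and F group, was at 63.4 and 54.5 FPKM with shNT and 74.4 FPKM in both shPcyt2-1 libraries. The log2 fold change was 0.34 (SE 0.077, adjusted P = 0.0146, limma), and the groups did not overlap.

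HNRNPR was at 9.91 and 10.9 FPKM with shNT, 13.9 and 12.6 FPKM with shPcyt2-1, and 11.2 and 11.5 FPKM with shPcyt2-2, a log2 fold change with shPcyt2-1 of 0.32 (adjusted P = 0.0268, limma). HNRNPDL, a relative of the AU-rich element binding hnRNP D, was at 25.5 and 23.4 FPKM with shNT, 31.1 and 29.9 FPKM with shPcyt2-1, and 26.4 and 25.8 FPKM with shPcyt2-2, a log2 fold change with shPcyt2-1 of 0.31 (adjusted P = 0.0157, limma). In both genes all 4 knockdown libraries lay above the controls without overlap in the deposited scaling. With the trend on GC content and length removed, their log2 fold changes with shPcyt2-2 moved from 0.12 and 0.091 to -0.12 and -0.017. HNRNPA1, with the library values given above, had a log2 fold change of 0.29 (SE 0.077, adjusted P = 0.0246, limma). It was 0.19 without shPcyt2-1 replicate 1 and 0.15 with the trend on GC content and length removed (adjusted P = 0.206 and 0.227, limma). HNRNPUL1, an RNA-binding protein of the hnRNP U group, was at 109 and 118 FPKM with shNT and 133 and 129.95 FPKM with shPcyt2-1, a log2 fold change of 0.21 (adjusted P = 0.0317, limma). The changes in these 4 genes were of like size, between 0.21 and 0.32. Exons of HNRNPH3, HNRNPUL1 and SRSF9 overlap those of RUFY2, TGFB1 and GATC on the opposite strand, and without a stated strand setting reads there cannot be assigned.

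The scaling of the libraries bears on these directions. Median-ratio scaling turned the split over all genes from 2109 higher and 1291 lower to 1476 and 1713, and that over the 32 genes from 9 and 1 to 4 and 3. SRSF6, SRSF3, HNRNPDL, HNRNPH3 and SRSF9 remained past the threshold under it, and SRSF4 and SRSF11 became lower. HNRNPL, HNRNPR, SRSF1, HNRNPA1 and HNRNPUL1 did not pass, with log2 fold changes of 0.36, 0.25, 0.23, 0.22 and 0.14. With the trend on GC content and length removed, 3 of the 32 genes were higher (HNRNPDL, HNRNPH3 and HNRNPUL1) and 5 were lower (SRSF9, SRSF4, SRSF11, SRSF8 and HNRNPC). Over all tested genes the split was 1807 higher and 1667 lower in this setting. The log2 fold changes of SRSF6, SRSF3, SRSF1 and HNRNPR were then 0.18, 0.11, 0.13 and 0.10 and did not pass, those of HNRNPDL and HNRNPH3 were 0.18 and 0.19, and that of SRSF9 was -0.43. Without either shPcyt2-1 library, or without either shNT library, 1 group held a single library. The 10 calls were then lost in part or nearly all lost, and fewer of all tested genes passed as well. With any 1 library left out, the log2 fold changes of the genes called higher lay between 0.16 and 0.65. That of SRSF9 lay between -0.39 and -0.15.

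The second comparison put shPcyt2-2 against the same shNT libraries, so that its values are not independent of the first. Of the 32 genes, 5 were higher and 1 was lower (18.75%), compared with a background of 12.4% of all tested genes (7.69% higher and 4.74% lower). The shPcyt2-2 libraries lay above both controls in 14 genes and below them in 5, compared with 35.1% and 22.4% of all tested genes. HNRNPC, HNRNPK, HNRNPF, SRSF5 and SRSF7 were higher and HNRNPUL2 was lower. The median log2 fold change was 0.083 over the 32 genes and 0.044 over all tested genes, and it turned to -0.062 over the 32 genes with the trend on GC content and length removed.

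HNRNPC, the core hnRNP that packages pre-mRNA and masks cryptic splice sites in Alu elements, was at 159.9 and 151 FPKM with shNT and 189 and 200.1 FPKM with shPcyt2-2. The groups did not overlap, and the log2 fold change was 0.32 (SE 0.061, adjusted P = 0.0149, limma). With shPcyt2-1 the same gene was at 135 and 142 FPKM, below both control libraries, with a log2 fold change of -0.16 that did not pass the test (adjusted P = 0.0744, limma). SRSF5, an SR protein that responds to hormones and to growth signals, was at 89.5 and 98.9 FPKM with shNT, 96.1 and 94.3 FPKM with shPcyt2-1, and 119 and 114 FPKM with shPcyt2-2. It was higher with shPcyt2-2 by 0.31 on the log2 scale (SE 0.066, adjusted P = 0.0216, limma), while its shPcyt2-1 libraries lay inside the range of the controls.

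HNRNPF, which binds G tracts as HNRNPH1 does, was at 98.9 and 95.8 FPKM with shNT and 116 and 118 FPKM with shPcyt2-2. The log2 fold change was 0.26 (SE 0.056, adjusted P = 0.0200, limma), and the groups did not overlap. HNRNPK had a log2 fold change of 0.29 (SE 0.061, adjusted P = 0.0199, limma), compared with 0.16 with shPcyt2-1 (adjusted P = 0.0876, limma). The value of HNRNPK with shPcyt2-1 was -0.012 with the trend on GC content and length removed. SRSF7, an SR protein with a zinc knuckle that acts in splicing and export, was at 34.0 and 31.8 FPKM with shNT, 35.3 and 35.4 FPKM with shPcyt2-1, and 42.5 and 38.4 FPKM with shPcyt2-2. All 4 knockdown libraries lay above the controls in the deposited scaling, and the log2 fold change of 0.29 with shPcyt2-2 passed the test (SE 0.074, adjusted P = 0.0368, limma). With the trend on GC content and length removed, that of SRSF7 with shPcyt2-1 moved from 0.10 to -0.076. HNRNPUL2 was at 48.8 and 50.5 FPKM with shNT, 50 and 49.3 FPKM with shPcyt2-1, and 42.6 FPKM in both shPcyt2-2 libraries, and it fell by 0.22 on the log2 scale with shPcyt2-2 (adjusted P = 0.0488, limma). Its exons overlap those of the readthrough gene HNRNPUL2-BSCL2, and reads there could have been counted for either.

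Median-ratio scaling left HNRNPUL2 alone of these 6 past the threshold. HNRNPC was then at 0.27, SRSF5 at 0.25, SRSF7 and HNRNPK at 0.24 and HNRNPF at 0.21. The trend removal left HNRNPF and HNRNPUL2, with HNRNPC at 0.14, SRSF5 and SRSF7 at 0.15 and HNRNPK at 0.16. In both settings HNRNPA1L2 became lower. Under median-ratio scaling the split over all genes turned from 981 higher and 604 lower to 760 and 845. Without either shPcyt2-2 library, or without shNT replicate 2, 1 group held a single library. Among the 32 genes the calls were then lost or nearly all lost, and fewer of all tested genes passed as well. With any 1 library left out, the log2 fold changes of the genes called higher lay between 0.22 and 0.38. That of HNRNPUL2 lay between -0.24 and -0.19.

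**Figure D1:**
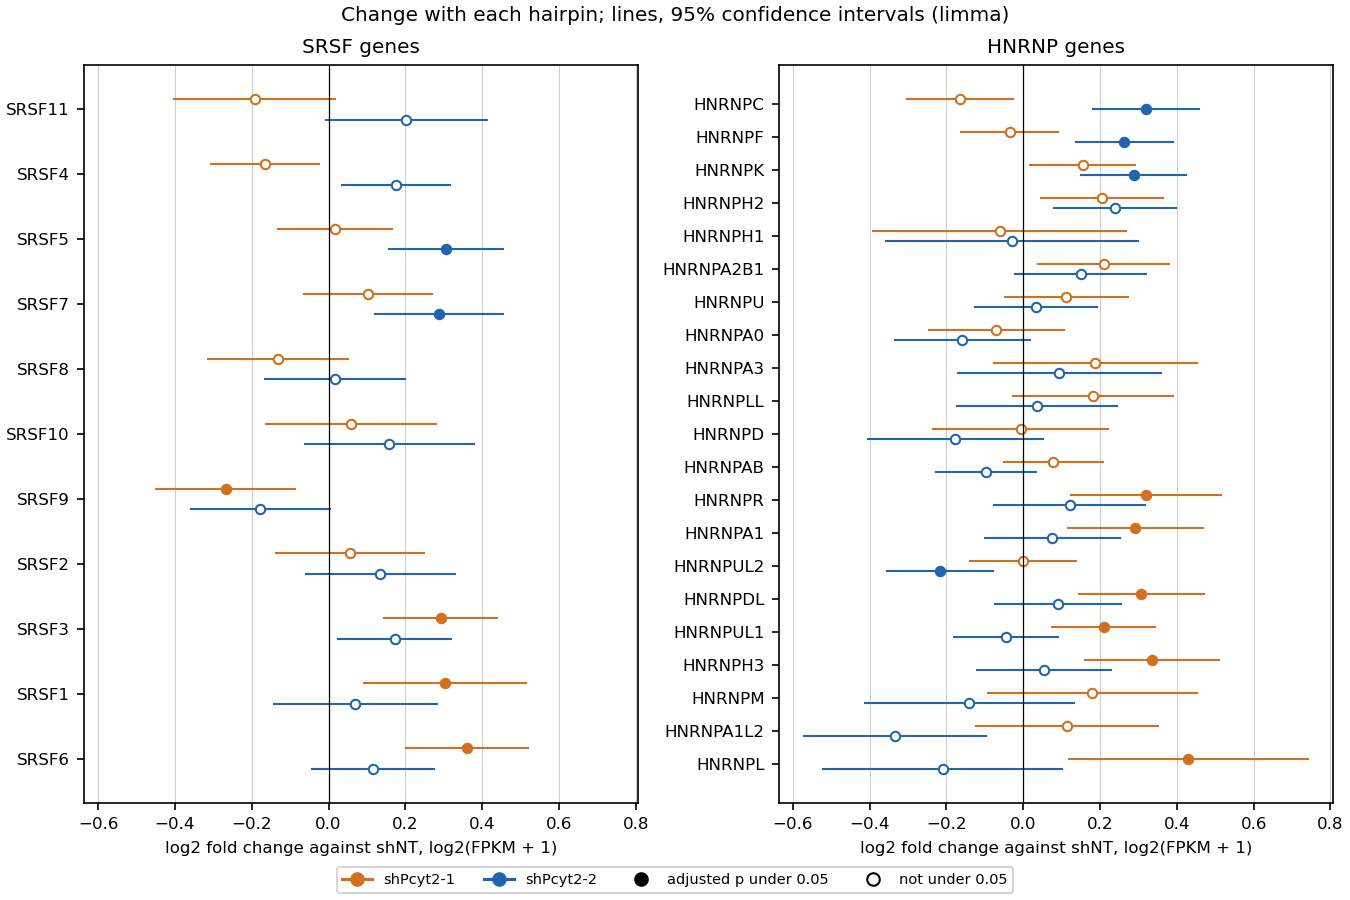
Log2 fold change of log2(FPKM + 1) against shNT for shPcyt2-1 and shPcyt2-2, with 95% confidence intervals from limma, in the order of the difference between the hairpins. Filled points have an adjusted P under 0.05. With the deposited scaling, SRSF4, SRSF11 and HNRNPC lay below 0 with shPcyt2-1 and above 0 with shPcyt2-2, and HNRNPL lay above 0 with shPcyt2-1 and below 0 with shPcyt2-2. With the trend on GC content and length removed, SRSF11 was at -0.014 with shPcyt2-2.

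The third comparison tested the difference between the hairpins itself, which does not use the shNT libraries other than for the estimate of the spread. Of the 32 genes, 5 were higher and 6 were lower with shPcyt2-2 than with shPcyt2-1 (34.4%), compared with a background of 27.1% of all tested genes (12.9% higher and 14.2% lower). Both shPcyt2-2 libraries lay above both shPcyt2-1 libraries in 10 genes and below them in 16, compared with 30.7% and 36.5% of all tested genes. The 5 higher genes were HNRNPC, SRSF11, SRSF4, HNRNPF and SRSF5, and the 6 lower genes were HNRNPL, HNRNPA1L2, HNRNPH3, HNRNPUL1, SRSF6 and HNRNPUL2. The families leaned in opposite directions. The difference was positive in 8 of 11 SRSF genes, with a median of 0.10, and negative in 16 of 21 HNRNP genes, with a median of -0.17, beside -0.023 over all tested genes. These counts of signs were the same under median-ratio scaling and with the trend on GC content and length removed, where the medians were 0.12 and 0.14 for SRSF and -0.15 and -0.14 for HNRNP. The difference between the families was not tested. Without any 1 of the 4 hairpin libraries, 1 group held a single library. Part of the 11 calls was then lost, and fewer of all tested genes passed as well. With any 1 library left out, the differences lay between 0.26 and 0.53 in the 5 higher genes. In the 6 lower genes they lay between -0.86 and -0.20.

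HNRNPC showed the largest positive difference, 0.48 (95% confidence interval 0.35 to 0.62, adjusted P = 0.000829, limma), from the 135 and 142 FPKM with shPcyt2-1 to the 189 and 200.1 FPKM with shPcyt2-2. SRSF4, an SR protein with a long arginine-serine tail, was at 37.1 and 37.2 FPKM with shNT, 33.0 and 33.1 FPKM with shPcyt2-1, and 41.6 and 42.7 FPKM with shPcyt2-2. The 3 groups were tight and separate, with shNT in the middle in the deposited scaling, and the difference was 0.34 (95% confidence interval 0.20 to 0.48, adjusted P = 0.00463, limma). With the trend on GC content and length removed, the log2 fold change of SRSF4 with shPcyt2-2 against shNT moved from 0.18 to 0.018. HNRNPF, at 95.3 and 94.6 FPKM with shPcyt2-1, differed by 0.30 (95% confidence interval 0.17 to 0.42, adjusted P = 0.00498, limma). The differences in HNRNPC, SRSF4 and HNRNPF passed the threshold in 15 of 15 alternative settings.

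SRSF11, an SR-related protein found with the U1 and U2AF factors, was at 21.7 and 19.1 FPKM with shNT, 18.3 and 17.1 FPKM with shPcyt2-1, and 25.2 and 22.1 FPKM with shPcyt2-2. The hairpin groups were separate on both sides of the controls in the deposited scaling, and the difference was 0.40 (SE 0.093, adjusted P = 0.0137, limma). SRSF5 differed by 0.29 (SE 0.066, adjusted P = 0.0122, limma).

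HNRNPL, at 63.7 and 52.5 FPKM with shPcyt2-2, showed the largest negative difference, -0.64 (95% confidence interval -0.95 to -0.33, adjusted P = 0.00960, limma), and -0.42 without shPcyt2-1 replicate 2. HNRNPA1L2 was at 5.93 and 6.76 FPKM with shNT, 7.41 and 6.496 FPKM with shPcyt2-1, and 5.02 and 4.63 FPKM with shPcyt2-2, a difference of -0.45 (SE 0.10, adjusted P = 0.0135, limma), with the doubt over HNRNPA1 reads named above. HNRNPH3, at 62.3 and 59.8 FPKM with shPcyt2-2, differed by -0.28 (SE 0.077, adjusted P = 0.0262, limma). Its shPcyt2-2 libraries lay within the range of the controls. HNRNPUL1 was at 111 and 109 FPKM with shPcyt2-2 and differed by -0.25 (SE 0.060, adjusted P = 0.0137, limma). SRSF6 was at 27.6 and 26.1 FPKM with shPcyt2-2, between the controls and shPcyt2-1, and differed by -0.25 (SE 0.070, adjusted P = 0.0304, limma). This order holds for the deposited scaling. With the trend on GC content and length removed, SRSF6 was at -0.057 with shPcyt2-2 against shNT. The difference in HNRNPUL2 was -0.22 (SE 0.061, adjusted P = 0.0285, limma) and did not pass under median-ratio scaling. Some of the epithelial markers named above moved between the hairpins as well, with KRT8, KRT18 and KRT19 lower and CDX2 higher with shPcyt2-2. CDH1, VIL1 and EPCAM did not pass there, with log2 differences of 0.15, 0.12 and -0.068. The part of these markers in the differences between the hairpins was not tested.

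**Figure D2:**
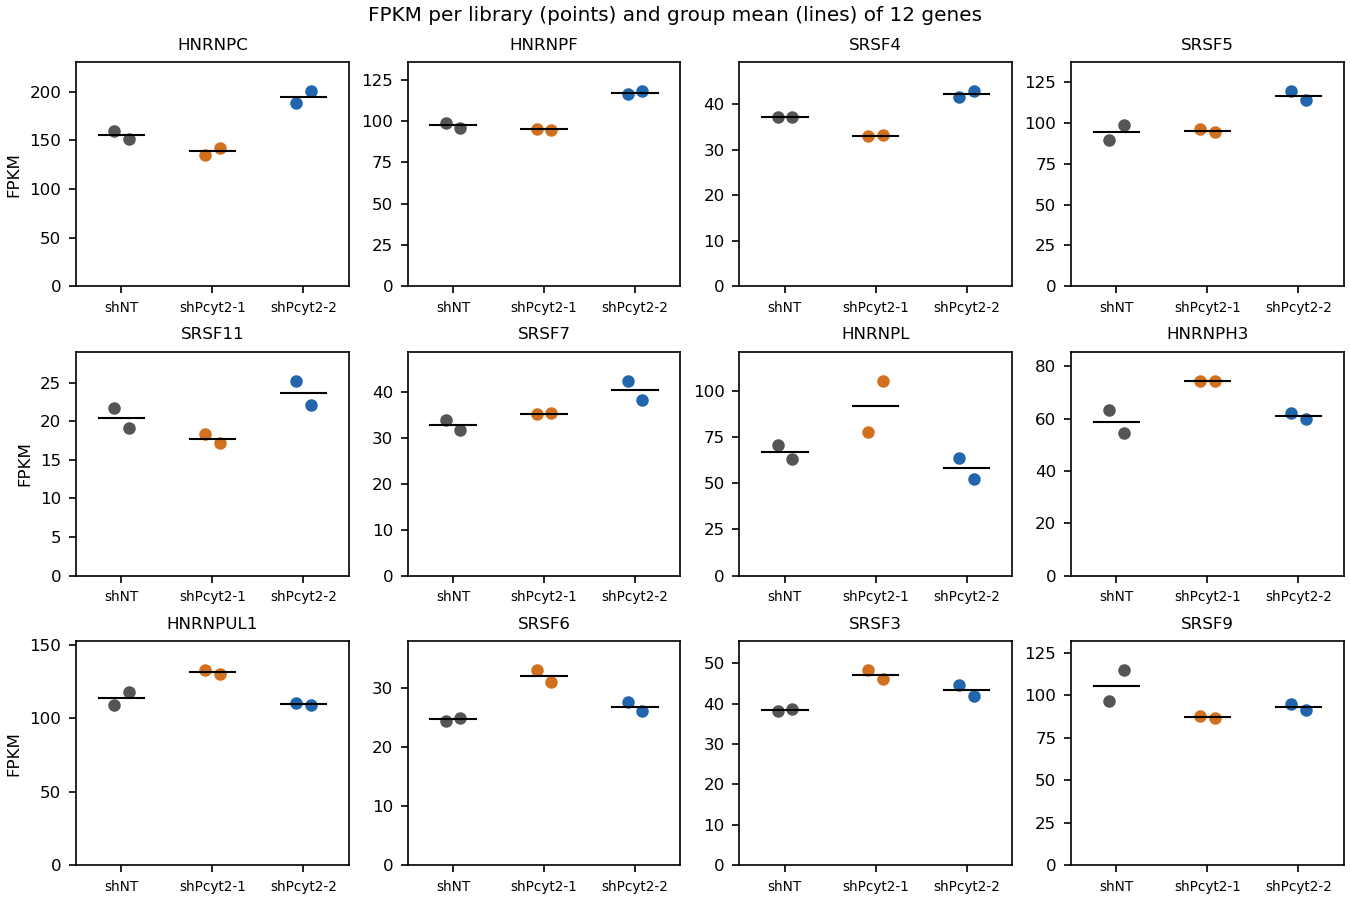
FPKM in each of the 6 libraries (points) and the mean of each group (lines) for 12 genes that differed with a hairpin or between the hairpins. The vertical axes start at 0 and differ between genes. HNRNPC, HNRNPF, SRSF4, SRSF5 and SRSF11 were highest with shPcyt2-2, whereas HNRNPL, HNRNPH3, HNRNPUL1, SRSF6 and SRSF3 were highest with shPcyt2-1.

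The sequences upstream of 4 genes are shown because HNRNPC, HNRNPF and SRSF4 differed between the hairpins in every setting run, with shPcyt2-2 higher, and SRSF6 went the other way. Of the 250 bases before the RefSeq start (GRCh38.p14), the longest run without a GENCODE exon is given, 5′ to 3′ on the strand of the gene. The runs are chr14:21269495-21269692 (minus strand) for HNRNPC, chr10:43408883-43409089 (minus strand) for HNRNPF, chr1:29181988-29182150 (minus strand) for SRSF4 and chr20:43457646-43457895 (plus strand) for SRSF6. Capitals mark 5 motifs searched on both strands, the CCAAT box (CCAAT), the GC box (GGGCGG), the ETS core (CGGAAG), the E-box (CACGTG) and the TATA box (TATAAA).
HNRNPC: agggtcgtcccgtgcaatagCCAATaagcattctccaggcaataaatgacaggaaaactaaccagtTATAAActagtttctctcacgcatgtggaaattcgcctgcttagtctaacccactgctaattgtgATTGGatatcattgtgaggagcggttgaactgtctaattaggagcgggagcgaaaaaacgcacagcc
HNRNPF: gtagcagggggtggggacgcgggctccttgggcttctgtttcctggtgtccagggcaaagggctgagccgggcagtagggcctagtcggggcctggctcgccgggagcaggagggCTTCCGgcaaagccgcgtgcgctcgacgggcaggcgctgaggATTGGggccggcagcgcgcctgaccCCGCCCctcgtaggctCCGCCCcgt
SRSF4: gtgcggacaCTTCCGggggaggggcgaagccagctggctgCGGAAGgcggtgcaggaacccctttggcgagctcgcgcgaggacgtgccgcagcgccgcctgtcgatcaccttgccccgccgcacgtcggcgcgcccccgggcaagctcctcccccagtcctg
SRSF6: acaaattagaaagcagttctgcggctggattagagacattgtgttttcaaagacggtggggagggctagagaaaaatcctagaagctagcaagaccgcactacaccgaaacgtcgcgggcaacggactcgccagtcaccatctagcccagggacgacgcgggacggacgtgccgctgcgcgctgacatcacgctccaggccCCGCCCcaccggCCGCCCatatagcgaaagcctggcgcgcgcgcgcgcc

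The HNRNPC run holds CCAAT boxes and a TATA box and has a GC content of 44.9%, whereas the HNRNPF and SRSF4 runs have 72.9% and 74.2%. Entries were found for 30 of the 32 tested genes in the RefSeq promoter table. A CCAAT box was found in the 250 bases upstream of 15 of these 30 (50%), compared with 32.01% of all 35116 promoters and 34.8% of 9765 promoters of tested genes. A GC box was found in 19 (63.3%), compared with 42.6% of all promoters and 69.5% of those of tested genes. An ETS core was found in 11 (36.7%, compared with 16.5% and 28.5%), an E-box in 6 (20%, compared with 6.35% and 9.16%) and a TATA box in 5 (16.7%, compared with 10.7% and 5.12%). A match is a description of the letters and not a binding site.

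With both hairpins as 1 group of 4 libraries against shNT, 0 of the 32 genes passed an adjusted P under 0.05 (limma), compared with a background of 0.00784% of all tested genes, a single gene. PCYT2 did not pass in this fit either, with a log2 fold change of -0.80 (adjusted P = 0.115, limma). At an unadjusted P under 0.05, 4 of the 32 passed (12.5%), compared with 16.7% of all tested genes. The spread in this fit holds the difference between the hairpins. In 8 of the 32 genes all 4 knockdown libraries lay above both controls and in 1 all lay below, compared with 20.7% and 9.48% of all tested genes. The mean of the hairpins taken from the fit with 3 groups called 4 of the 32 genes, all of them higher, compared with 16.8% of all tested genes (10.9% higher and 5.85% lower). HNRNPH2, an H group member from a gene on chromosome X, was among those with like values under each hairpin. It was at 38.4 and 36.5 FPKM with shNT, 42.6 and 44.1 FPKM with shPcyt2-1, and 46.5 and 42.5 FPKM with shPcyt2-2, with log2 fold changes of 0.205 and 0.24 (adjusted P = 0.0593 and 0.0560, limma). HNRNPH2 passed with both hairpins when the expression limit was 5 FPKM, and with shPcyt2-2 when the replicate number was a block. Under median-ratio scaling its log2 fold changes were 0.13 and 0.19. With the trend on GC content and length removed they were 0.039 and 0.12 (adjusted P = 0.594 and 0.160, limma). Exons of HNRNPH2 overlap those of the readthrough gene RPL36A-HNRNPH2, and reads there could have been counted for either.

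The remaining genes did not pass any of these tests with the deposited scaling and the fit of 3 groups. In other settings some did. SRSF8 passed with the trend on GC content and length removed, with shPcyt2-1 against shNT and between the hairpins. HNRNPA2B1 passed with shPcyt2-1 when the replicate number was a block, and HNRNPM passed between the hairpins without either shNT library, without shPcyt2-2 replicate 1 and with only the 4 libraries compared. HNRNPAB, whose difference between the hairpins was -0.18 (adjusted P = 0.0507, limma), passed there with an expression limit of 5 FPKM, with the block, without either shNT library and with only the 4 libraries compared. HNRNPA2B1, which reads methylated RNA and overlaps CBX3 on the opposite strand, was at 153 and 148 FPKM with shNT, 181 and 167 FPKM with shPcyt2-1, and 179 and 156 FPKM with shPcyt2-2. HNRNPU, a chromatin-bound scaffold protein, had a mean of 85.1 FPKM, HNRNPM 68.3 FPKM and HNRNPD 39.5 FPKM, and HNRNPA0 and HNRNPA3 followed with 35.0 and 33.1 FPKM. HNRNPLL, a relative of HNRNPL known from T cells, had a mean of 8.68 FPKM. HNRNPH1 was the least certain of the abundant genes, since its control libraries stood at 42.5 and 29.3 FPKM and enclosed all 4 knockdown libraries. SRSF10, which acts as a repressor when dephosphorylated, had log2 fold changes of 0.058 and 0.16 (adjusted P = 0.686 and 0.2996, limma). SRSF8, a gene close in sequence to SRSF2, had log2 fold changes of -0.13 and 0.018 (adjusted P = 0.249 and 0.906, limma).

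**Figure D3:**
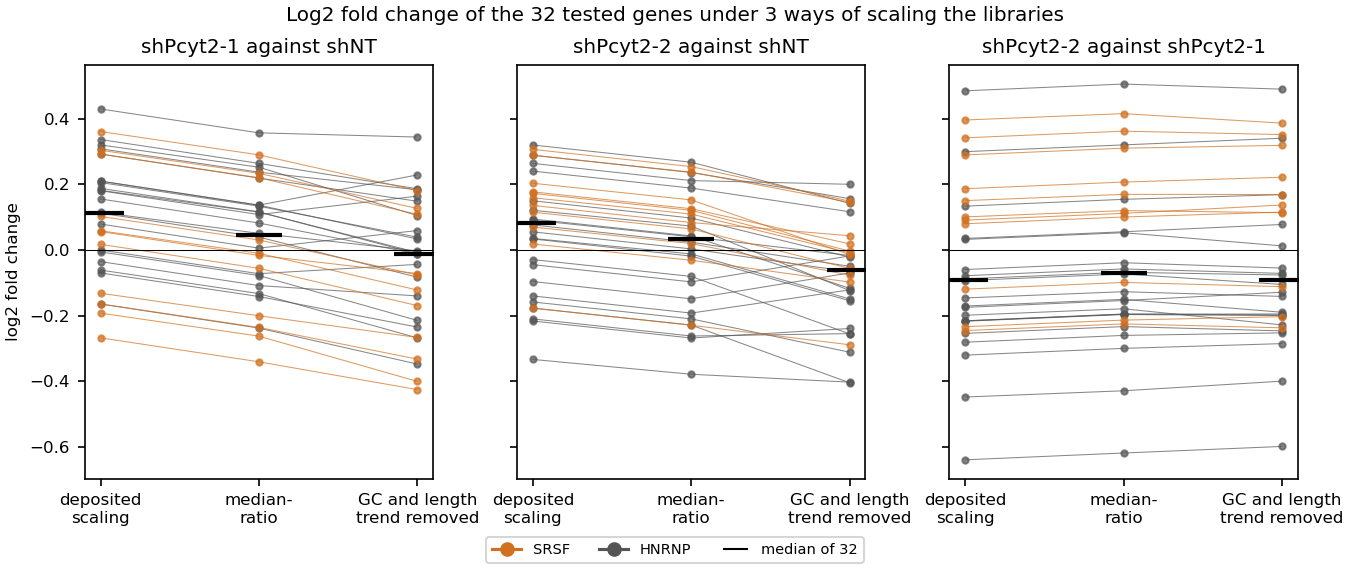
Log2 fold change of the 11 SRSF and 21 HNRNP genes in the 3 comparisons of single groups, with the deposited scaling, with median-ratio scaling and with a trend on GC content and length removed from each library. Each line is a gene and each bar the median of the 32 genes, which moved from 0.11 to -0.012 with shPcyt2-1 and from 0.083 to -0.062 with shPcyt2-2, while between the hairpins it was -0.091 with both the first and the last.

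Partners of these proteins were examined through 7 lists of splicing and decay genes. Their counts stand beside the shares of all tested genes, 16.5% higher and 10.1% lower with shPcyt2-1, 7.69% and 4.74% with shPcyt2-2, and 12.9% and 14.2% between the hairpins. The split over the 151 tested genes of the lists depended on the scaling. With shPcyt2-1 it was 31 higher and 6 lower, 15 and 10 under median-ratio scaling, and 21 and 12 with the trend on GC content and length removed. With shPcyt2-2 the splits were 13 and 6, 8 and 6, and 10 and 11, and between the hairpins 13 and 26, 16 and 23, and 21 and 30. Among kinases and import factors of SR proteins, 0 of 10 genes passed with either hairpin against shNT (limma), while 2 with shPcyt2-1 and 3 with shPcyt2-2 had an unadjusted P under 0.05, compared with 40.9% and 31.1% of all tested genes. The median log2 fold changes were 0.078 and 0.24, compared with 0.067 and 0.044 over all tested genes. They were 0.025 and 0.19 under median-ratio scaling, and -0.13 and 0.059 with the trend on GC content and length removed, and in each of these settings 1 gene was lower with shPcyt2-1. Between the hairpins, 2 genes were higher with shPcyt2-2. These were SRPK2, a cytoplasmic SR protein kinase, at 24.5 and 24.9 FPKM with shPcyt2-1 and 35.8 and 32.2 FPKM with shPcyt2-2 (log2 difference 0.44, adjusted P = 0.00312, limma), and CLK3, a nuclear SR protein kinase (0.35, adjusted P = 0.0305, limma). Among 26 SR-related proteins, 5 were higher and 0 lower with shPcyt2-1, and 1 was higher and 1 lower with shPcyt2-2, with median log2 fold changes of 0.10 and 0.17. With the trend on GC content and length removed, 1 was higher and 1 lower with shPcyt2-1, and the medians were -0.00013 and 0.043. TRA2B, a close relative of the SR proteins that binds purine-rich enhancers, rose from 20.5 and 20.1 FPKM to 26.2 and 25.3 FPKM with shPcyt2-1 (log2 fold change 0.33, adjusted P = 0.0110, limma).

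Among 37 other RNA-binding splicing regulators, 10 were higher and 1 lower with shPcyt2-1, and 7 were higher and 2 lower with shPcyt2-2, with median log2 fold changes of 0.12 and 0.015. The medians were 0.044 and -0.035 under median-ratio scaling, and 0.016 and -0.047 with the trend on GC content and length removed, where the calls were 5 higher and 2 lower with shPcyt2-1 and 3 higher and 5 lower with shPcyt2-2. Between the hairpins, 3 of them were higher and 11 lower with shPcyt2-2. TIA1, which promotes weak 5′ splice sites, was at 5.32 and 4.22 FPKM with shNT, 8.26 and 7.27 FPKM with shPcyt2-1, and 5.79 and 5.37 FPKM with shPcyt2-2, a log2 fold change of 0.61 with shPcyt2-1 (adjusted P = 0.00724, limma). ESRP2, a regulator of epithelial splicing, fell from 12.8 and 14.6 FPKM to 11.3 and 11.1 FPKM with shPcyt2-1 (log2 fold change -0.27, adjusted P = 0.0466, limma) and stood at 14.2 and 15.1 FPKM with shPcyt2-2. RALY, a relative of HNRNPC, fell from 52.4 and 56.5 FPKM to 45.6 and 46.4 FPKM with shPcyt2-2 (log2 fold change -0.24, adjusted P = 0.0470, limma), whereas HNRNPC rose there.

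In the core spliceosome, 7 of 22 genes of the U1 and U2 particles and U2AF passed with shPcyt2-1, 5 higher and 2 lower, and 3 with shPcyt2-2, 2 higher and 1 lower, with median log2 fold changes of 0.098 and 0.067. SNRPC rose and SNRNP70 fell with shPcyt2-1, although both encode proteins of the U1 particle. SNRPC went from 77.7 and 70.0 FPKM to 96.0 and 97.9 FPKM (log2 fold change 0.39, adjusted P = 0.00511, limma), and SNRNP70 from 109 and 120.2 FPKM to 87.1 and 93.0 FPKM (log2 fold change -0.34, adjusted P = 0.00935, limma). Of 7 Sm proteins, 2 were higher with shPcyt2-1 and 1 with shPcyt2-2, with medians of 0.27 and 0.19. These calls were lost under median-ratio scaling, where the medians were 0.196 and 0.15. With the trend on GC content and length removed, 1 was higher with shPcyt2-1 and 2 with shPcyt2-2, with medians of 0.13 and 0.14. Of 34 genes of the tri-snRNP and the catalytic complex, 6 were higher and 3 lower with shPcyt2-1, and 1 was higher and 1 lower with shPcyt2-2, with medians of 0.058 and -0.00045. Under median-ratio scaling the tri-snRNP calls were 2 higher and 4 lower with shPcyt2-1, with a median of -0.012, and 0 higher and 1 lower with shPcyt2-2. Those of the U1 and U2 list with shPcyt2-1 were then 2 higher and 2 lower. With the trend on GC content and length removed, the tri-snRNP calls were 5 higher and 3 lower with shPcyt2-1 and 0 and 2 with shPcyt2-2. The U1 and U2 calls were then 5 higher and 4 lower with shPcyt2-1 and 3 and 1 with shPcyt2-2.

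In the list of nonsense-mediated decay and exon junction genes, which act on the poison-exon transcripts of the SR genes, 3 of 15 were higher and 0 lower with shPcyt2-1, 1 was higher and 1 lower with shPcyt2-2, and 6 of 15 (40%) were lower and 0 higher with shPcyt2-2 than with shPcyt2-1. The counts between the hairpins were the same in the other 2 scalings. MAGOHB, an exon junction subunit, was at 4.56 and 4.32 FPKM with shNT, 7.78 and 7.77 FPKM with shPcyt2-1, and 5.24 and 5.18 FPKM with shPcyt2-2 (log2 fold change with shPcyt2-1 0.69, adjusted P = 0.00160, limma). Its paralog MAGOH rose by 0.36 on the log2 scale with shPcyt2-1 (adjusted P = 0.0184, limma). SMG5, which recruits decay enzymes to marked transcripts, was at 42.1 and 43.4 FPKM with shPcyt2-1 and 31.7 and 31.6 FPKM with shPcyt2-2 (log2 difference -0.42, adjusted P = 0.00187, limma). The median log2 fold changes of this list were 0.15 with shPcyt2-1 and -0.0051 with shPcyt2-2, compared with 0.067 and 0.044 over all tested genes. They were 0.081 and -0.056 under median-ratio scaling, and 0.017 and -0.059 with the trend on GC content and length removed.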

How the data were processed

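RNA-Seq of 6 SW480 libraries was grouped by the labels. The authors deposited 1 table per library of values per Ensembl identifier, taken as FPKM since they are not whole numbers and have like sums. TPM over a part of the genes would look alike, and the count-based package of the study's methods could not be used. The aligner, annotation and strand setting are not given in the sources used here, and 2 library kits are named without libraries. The submitters' processing notes name the mouse builds GRCm38 and mm10 beside GRCh38 with no role, while the identifiers in the tables are human, so the build behind these values is not settled.

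Of 21539 identifiers, 115 repeated ones were summed and 999 groups with identical values merged (HNRNPR, HNRNPH1 and HNRNPL with 1 other identifier each), leaving 19746. Symbols and positions are from GENCODE release 29 (GRCh38). Genes with a mean of at least 0.5 FPKM entered the limma fit (version 3.58.1, R 4.3.3) of log2(FPKM + 1), a scale that understates the change of low genes, with 3 groups, a mean-variance trend and P values adjusted by Benjamini-Hochberg over 12756 genes. Both hairpins as 1 group had a fit of 2 groups. The fit was tested on simulated data. Exons of 17 of the 32 genes overlap another gene.

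Full values are given for the 3 most abundant genes of each family and up to 5 higher and 5 lower in each comparison. Genes called with both hairpins were to be given as well, but no SR or hnRNP gene was called with both in the main fit. Other genes were named after their values were seen. The genes and lists were chosen with earlier results of these data known. Alternatives covered the pseudocount (0.1), expression limit (none or 5 FPKM), scaling, GC content and length, replicate block, variance trend, repeated rows and the libraries used.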

Additional observations from a re-analysis of the deposited data

Results flagged for a closer look

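For 11 of the 32 SR and hnRNP genes the effect of the 2 hairpins against the same controls differed by a test of the difference itself (limma, adjusted P under 0.05 over all tested genes). The log2 difference, shPcyt2-2 minus shPcyt2-1, was 0.48 in HNRNPC, 0.40 in SRSF11, 0.34 in SRSF4, 0.30 in HNRNPF and 0.29 in SRSF5. It was -0.64 in HNRNPL, -0.45 in HNRNPA1L2, -0.28 in HNRNPH3, -0.25 in HNRNPUL1, -0.25 in SRSF6 and -0.22 in HNRNPUL2. PCYT2 itself did not pass this test, with a log2 difference of -0.15 (adjusted P = 0.310, limma), except with the trend on GC content and length removed, where it was -0.22 (adjusted P = 0.0271, limma). Both libraries of shPcyt2-2 lay above both libraries of shPcyt2-1 in each of the first 5 genes and below them in each of the other 6. Over all tested genes, 27.1% passed the same test.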

How the results depend on the processing

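No SR or hnRNP gene changed sign, under any setting run, in the comparison in which it was called. Genes that were not called did so in several settings. With the trend on GC content and length removed, 9 of 22 changed sign with shPcyt2-1 and 14 of 26 with shPcyt2-2. Between the hairpins this was 0 of 22, with PCYT2 counted among these. The called genes were 10 of 32 with shPcyt2-1, 6 with shPcyt2-2, 11 between the hairpins and 0 with both hairpins as 1 group. Without an expression limit they were 3, 0 and 7, with 19746 genes tested in place of 12756, and without a variance trend 5, 0 and 7. Over all genes, 3400, 1585 and 3463 were called in the main fit. These counts were 1831, 124 and 2430 without an expression limit and 2941, 1027 and 3184 without a variance trend. With shPcyt2-2, 2 of the 32 genes were called under median-ratio scaling and 3 with the trend on GC content and length removed, compared with 1605 and 1758 of all 12756. The mean of the hairpins from the fit with 3 groups called 4, all higher, compared with 16.8% of all tested genes. In the comparisons of single groups with 1 library left out, the count over all tested genes moved in the same direction as that of the 32. Without a library of a compared group, fewer of the 32 were called, except with shPcyt2-2 when shNT replicate 1 was left out. Without a library of the third group, fewer were called against shNT and more between the hairpins.

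Of the 151 tested genes in the 7 lists, 37 were called with shPcyt2-1, 19 with shPcyt2-2 and 39 between the hairpins. Over all tested genes the shares were 26.7%, 12.4% and 27.1%. With both hairpins as 1 group, 0 list genes were called. Without an expression limit the list counts were 18, 1 and 23, compared with 1831, 124 and 2430 over all genes. With shPcyt2-2 the list counts were 5 without a variance trend and 10 with only the 4 libraries compared. Over all tested genes these were 1027 and 1279. The mean of the hairpins called 25 of the list genes, compared with 16.8% of all tested genes. Leaving out 1 library gave 5 to 40 with shPcyt2-1 (5 without its replicate 1), 0 to 22 with shPcyt2-2 (0 without its replicate 1) and 15 to 46 between the hairpins. Without shNT replicate 1 the list count with shPcyt2-1 rose, whereas that over all tested genes fell. The cause of these moves was not tested.

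The labels number the replicates without stating that they are paired, and the main fit did not pair them. The correlation of the deviations of same-numbered libraries was 0.0027, 0.062 and 0.19, which does not settle whether they are paired. With the replicate number as a block, 11, 7 and 13 of the 32 genes were called in the 3 comparisons. Over all tested genes, 3884, 2029 and 3869 were then called, compared with 3400, 1585 and 3463 without the block. Depth is unknown, so values near 0 have no counting limit, and with 2 libraries in a group each call rests on few values.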
